A study of Homo sapiens with 6 samples.

Results

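The expressed genes of non-transfected Hep G2 cells were described from 1 library of total RNA, which is 1 of 6 libraries of the series and holds a level for each of 21863 gene symbols. Hep G2 is an established line of human liver tumor cells, kept here in D-MEM with fetal bovine serum. The library is labelled NT with a time of 0 h, and it received neither the antibody nor a miRNA mimic. The other 5 libraries of the series (cells given mimics of miR-195 or miR-497, and Ago2 immunoprecipitates) were not compared with it. All genes of this library were taken, and the 28 symbols on more than 1 line were averaged. With 1 library there was no replicate, so no difference between genes was tested, and the levels describe this culture of a tumor cell line rather than liver.

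Levels are given in RPKM, the reads of a gene divided by its length and by the depth of the library, and can therefore be compared between genes. The spacing of the values showed that they had been scaled by a total of about 24734700 reads. At that depth, an RPKM of 1 stood for 24.7 reads of a gene 1000 bases long. Whole numbers of reads could be inferred for 13084 symbols. The intervals below are exact 95% Poisson intervals for these reads and cover counting error only. Summed over all genes, the values reached 319833 RPKM.

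The hepatocyte is the main cell of the liver. It secretes most plasma proteins and the apolipoproteins that carry lipids in blood, makes urea and bile acids, balances blood glucose and clears drugs, under a network of factors such as HNF4A, FOXA proteins and C/EBP proteins. In the fetal liver AFP takes the place that ALB, serum albumin, holds after birth, and growth-associated forms of many enzymes are used. Liver tumors often return to such fetal forms and express the cell division genes. Hep G2 is known to carry an activating deletion in CTNNB1, the gene of beta-catenin.

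The labelled cell type was checked with AFP, ALB and APOA1, which encode alpha-fetoprotein, serum albumin and the main protein of high density lipoprotein. AFP stood at 4884 RPKM (4865 to 4904, from 245490 reads) and was the highest of all genes. APOA1 stood at 635 RPKM, at the 99.8 percentile. ALB stood at 61.4 RPKM, at the 95.2 percentile. The 3 markers were thus all well above the median of all genes, 0.958 RPKM, and the markers of blood, vessel and connective tissue cells given further on were mostly at or near 0.

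The promoters of AFP, ALB, APOA2 and TPT1 are shown from RefSeq (build GRCh38.p14), 250 bases before to 50 bases after the annotated start. AFP and ALB are neighbours on chromosome 4 and are shown because they belong to 1 family and differed 79.5-fold in level, APOA2 because it was the second highest gene, and TPT1 as a high gene that most cells use. Capitals mark GTTAAT, letters of the site bound by HNF1, and TATAAA, the letters of the TATA box, each searched on both strands. The windows lie at chr4:73435971-73436270 (AFP, plus strand), chr4:73404037-73404336 (ALB, plus strand), chr1:161223579-161223878 (APOA2, minus strand) and chr13:45341134-45341433 (TPT1, minus strand).
AFP: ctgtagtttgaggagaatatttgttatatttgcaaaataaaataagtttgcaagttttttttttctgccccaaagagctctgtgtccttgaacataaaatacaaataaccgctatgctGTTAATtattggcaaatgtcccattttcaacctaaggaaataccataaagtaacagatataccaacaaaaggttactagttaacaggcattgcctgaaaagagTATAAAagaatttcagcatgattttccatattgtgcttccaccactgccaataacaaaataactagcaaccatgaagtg
ALB: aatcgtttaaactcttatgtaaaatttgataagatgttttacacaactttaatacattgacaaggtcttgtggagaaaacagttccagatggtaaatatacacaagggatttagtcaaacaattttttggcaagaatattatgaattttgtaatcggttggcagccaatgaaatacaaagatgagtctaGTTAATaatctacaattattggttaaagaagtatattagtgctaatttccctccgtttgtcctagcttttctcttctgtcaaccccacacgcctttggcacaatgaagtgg
APOA2: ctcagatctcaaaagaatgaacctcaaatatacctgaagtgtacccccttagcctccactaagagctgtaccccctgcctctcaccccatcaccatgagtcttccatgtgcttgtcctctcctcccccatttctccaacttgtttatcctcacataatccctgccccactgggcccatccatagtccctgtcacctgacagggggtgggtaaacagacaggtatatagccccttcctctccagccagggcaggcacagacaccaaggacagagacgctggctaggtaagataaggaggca
TPT1: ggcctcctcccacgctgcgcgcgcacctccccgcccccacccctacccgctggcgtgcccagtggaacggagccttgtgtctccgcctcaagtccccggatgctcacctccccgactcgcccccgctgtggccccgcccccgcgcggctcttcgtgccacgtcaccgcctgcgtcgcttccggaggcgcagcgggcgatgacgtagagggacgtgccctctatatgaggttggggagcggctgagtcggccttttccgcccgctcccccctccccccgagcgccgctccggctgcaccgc
The AFP window holds GTTAAT beginning 132 bases and TATAAA beginning 29 bases before the start, and the ALB window holds GTTAAT beginning 61 bases before it. The APOA2 and TPT1 windows hold neither. The AFP window has 1 CpG and the APOA2 window 1, the ALB window has 4, and the TPT1 window has 37.

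Levels spanned from 0 to 4884 RPKM. Above 0 were 15224 symbols (69.6%), 10883 (49.8%) had at least 1 RPKM, 5874 (26.9%) at least 10 and 549 (2.51%) at least 100. These shares are the background for the gene lists below, where a gene with at least 1 RPKM is called expressed. Only 11 symbols reached 1000 RPKM, and 6639 were listed at 0. Among the expressed symbols the median was 11.3 RPKM, and the middle of the distribution from the lower to the upper quartile ran from 4.52 to 26.7 RPKM. Among protein-coding genes 10298 of 18437 (55.9%) were expressed. Nearly all members of the lists are protein-coding, so this share is the closer background for them. Of the 429 lncRNA genes 80 (18.6%) were expressed, and of the 717 miRNA genes 22 (3.07%).

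**Figure D1:**
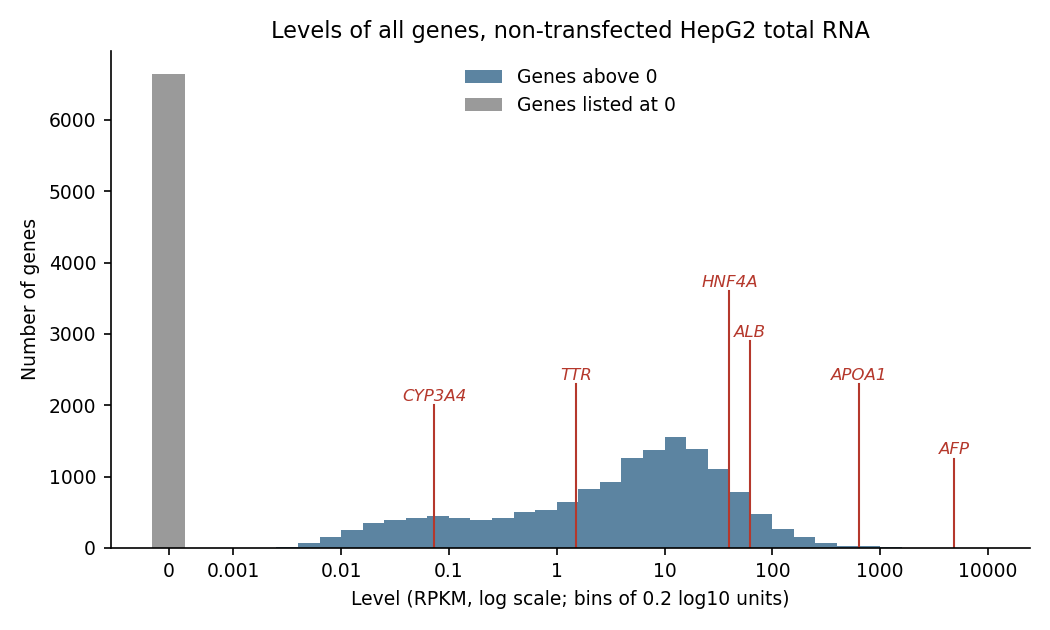
Number of genes (vertical axis) by level in RPKM (horizontal axis, log scale) in the 1 non-transfected total RNA library, with the 6639 genes listed at 0 as a grey bar. Red lines place 6 liver genes, from CYP3A4 at 0.073 RPKM to AFP at 4884 RPKM.

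The 25 highest genes held 10.1% of the summed level, and AFP alone held 1.53%. The second was APOA2, a protein of high density lipoprotein, at 3133 RPKM (3101 to 3165). FTL, the light chain of the iron store ferritin, followed at 2150 RPKM, and TPT1, a growth-associated protein of most cells, at 1951 RPKM. Secreted proteins among the 25 were also FN1 (fibronectin, 1337 RPKM), APOB (the backbone of very low density lipoprotein, 1199 RPKM), SEPP1 (the selenium carrier selenoprotein P, 1025 RPKM) and AHSG (fetuin-A, 901 RPKM). GPC3, a cell surface proteoglycan of fetal liver and liver tumors, stood at 834 RPKM.

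The rest of the 25 served general cell functions. Cytosolic ribosomal protein genes were 9 of them, led by RPS6 at 1384 RPKM and RPL11 at 1077 RPKM and ending with RPS12 at 778 RPKM. RPL23, RPL30, RPS15A, RPL27, RPS18 and RPL37A lay between 811 and 998 RPKM. GNB2L1, the ribosome scaffold RACK1, stood at 921 RPKM, and NCL, the nucleolar protein nucleolin, at 1061 RPKM. The chaperones HSP90AB1 (1075 RPKM), HSPA8 (966 RPKM) and HSPD1 (761 RPKM) and the glycolytic enzymes ENO1 (832 RPKM) and GAPDH (758 RPKM) completed them.

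Beyond these, the levels fell off slowly. The 10 highest genes held 6.02% of the summed level, the 100 highest 20.9%, the 1000 highest 54.2% and the 5000 highest 89.4%. The 809 highest genes held 50%. Of the 100 highest, 33 belonged to a set of 77 cytosolic ribosomal protein genes that leaves out Y-linked genes and like-named paralogs, 10 were plasma protein or apolipoprotein genes, 8 belonged to the HSP, CCT, DNAJ and protein disulfide isomerase families, and 5 were glycolysis genes. LYZ, the bacteria-lysing enzyme lysozyme, ranked 27 with 749 RPKM. It was chosen after its value was seen.

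**Figure D2:**
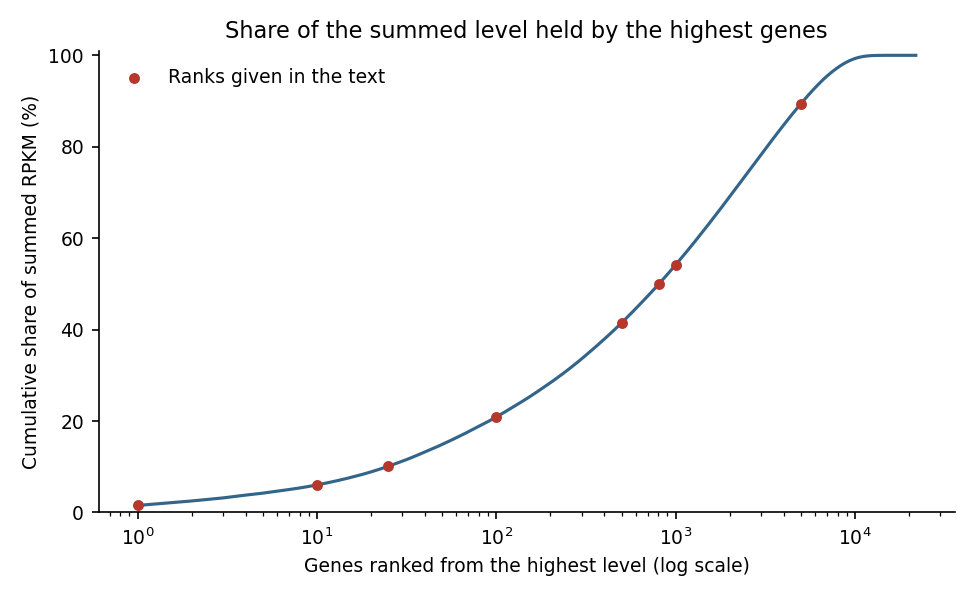
Cumulative share of the summed RPKM (vertical axis, percent) against genes ranked from the highest level (horizontal axis, log scale). The red points mark ranks given in the text, such as 20.9% for 100 genes and 50% for 809 genes.

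Plasma protein genes were spread from 901 RPKM to 0, with a median of 5.15 RPKM. Of 58 genes, 36 were expressed (62.1%, beside 49.8% of all genes and 55.9% of protein-coding genes). Of the 58, 13 had at least 100 RPKM, and 10 were listed at 0. After AHSG, the highest were SERPINA1 (alpha-1 antitrypsin, 671 RPKM), TF (transferrin, 386 RPKM) and ITIH2 (a carrier of hyaluronan, 345 RPKM). The 3 fibrinogen chains, which are joined in 1 clotting protein, differed in level, with FGG at 337 RPKM, FGA at 61 RPKM and FGB at 27 RPKM. RBP4, the retinol carrier, stood at 301 RPKM, while TTR, which carries RBP4 in blood, stood at 1.52 RPKM from 35 reads. Among the genes listed at 0 were the acute phase genes CRP, SAA1 and SAA2, F9 and PLG (clotting factor IX and plasminogen), C9 and APCS (complement and pentraxin proteins), ITIH1 and GC, the vitamin D carrier. Of the acute phase genes that were expressed, HP (haptoglobin) stood at 53.7 RPKM, ORM1 and ORM2 (orosomucoids, near-identical copies whose reads may be split) at 187 and 121 RPKM, and SERPINA3 at 9.84 RPKM.

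Apolipoprotein genes were expressed in 13 of 16 cases (81.2%, beside 49.8% of all genes), 6 of them with at least 100 RPKM. Together they held 1.92% of the summed level. APOH (516 RPKM) and APOE (314 RPKM), which binds lipoprotein receptors, followed APOA2, APOB and APOA1. Genes of 1 cluster differed widely, since APOA1 stood at 635 RPKM and its neighbours APOC3, APOA4 and APOA5 at 8.65, 3.71 and 2.83 RPKM. MTTP, which loads lipid on APOB, stood at 9.22 RPKM. LPA was listed at 0.

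The metabolic genes of adult liver were expressed about as often as genes at large, and slightly less often than protein-coding genes. Over 5 lists of such genes, 37 of 73 were expressed (50.7%, beside 49.8% of all genes and 55.9% of protein-coding genes). Of the 73, 2 had at least 100 RPKM. The weakest list was that of drug and alcohol metabolism, with 5 of 21 expressed (23.8%) and a median of 0.02 RPKM. There SULT2A1, a steroid sulfotransferase, was the highest at 23.9 RPKM, followed by AOX1 at 7.51, UGT2B7 at 3.45 and ADH4 at 1.65 RPKM. The main drug oxidase of adult liver, CYP3A4, stood at 0.073 RPKM from 5 reads, CYP2E1 at 0.0728 RPKM and CYP1A2 at 0.0129 RPKM. Among those listed at 0 were CYP2C19, CYP2A6, NNMT and the alcohol dehydrogenases ADH1A, ADH1B and ADH1C. The ADH1 genes are near-identical copies, so reads that match several copies may be lost.

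Urea cycle genes were uneven along the pathway. CPS1, the entry enzyme, stood at 10.5 RPKM, ASS1 and ASL at 30 and 12.1 RPKM, but OTC was listed at 0 and ARG1, the last step, stood at 0.14 RPKM. GLUL, which makes glutamine from ammonia, was the highest of that list at 54.4 RPKM. The mitochondrial carriers SLC25A13 and SLC25A15 stood at 46.9 and 19.2 RPKM. Of 10 genes 7 were expressed (70%, beside 49.8% of all genes). In amino acid breakdown 10 of 14 were expressed (71.4%). Of the steps that break down tyrosine, HPD (72.1 RPKM), HGD (60.6 RPKM) and FAH (35.6 RPKM) were high, while TAT, the step before them, stood at 1.36 RPKM. MAT1A, which makes S-adenosylmethionine in adult liver, stood at 75.1 RPKM. TDO2, which opens tryptophan, stood at 0.0239 RPKM and SDS was listed at 0.

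Among the genes that make and release glucose, several were near 0, while PC, pyruvate carboxylase, stood at 6.74 RPKM. PCK1, FBP1 and G6PC stood at 0.0151, 0.113 and 0.0131 RPKM, and the glycogen synthase GYS2 at 0.0129 RPKM. In contrast the mitochondrial form PCK2 stood at 91.8 RPKM, the glucose transporter SLC2A2 at 49 RPKM, the phosphorylase PYGL at 38.2 RPKM and the glucose 6-phosphate carrier SLC37A4 at 20.4 RPKM. Of 13 genes 7 were expressed (53.8%). In bile acid synthesis and transport 8 of 15 were expressed (53.3%). Both shares lie between the 49.8% of all genes and the 55.9% of protein-coding genes. The canalicular pump ABCC2 stood at 199 RPKM and CYP27A1, of the alternative synthesis route, at 34.9 RPKM, followed by AKR1D1 at 4.98 and ABCG5 at 3.98 RPKM. CYP7A1, the rate-limiting enzyme of the classic route, the bile salt pump ABCB11 and the uptake carriers SLCO1B1 and SLCO1B3 were listed at 0.

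Liver transcription factor genes were nearly all expressed. This was the case for 23 of 25 (92%, beside 49.8% of all genes), and none was listed at 0. HNF4A led with 40 RPKM, followed by CEBPA (27.3 RPKM), FOXA1 (22.9 RPKM) and TBX3 (22.5 RPKM). FOXA2 stood at 11.3 RPKM, and HHEX and PROX1, which act in the budding liver, at 19.7 and 18 RPKM. The bile acid receptor NR1H4 stood at 12.7 RPKM. The members under 1 RPKM were ONECUT1 (0.924 RPKM) and NR1I3 (0.25 RPKM), the drug receptor CAR. Thus the genes of the factors lay within a narrower range than the genes of secreted proteins, from 0.25 to 40 RPKM.

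**Figure D3:**
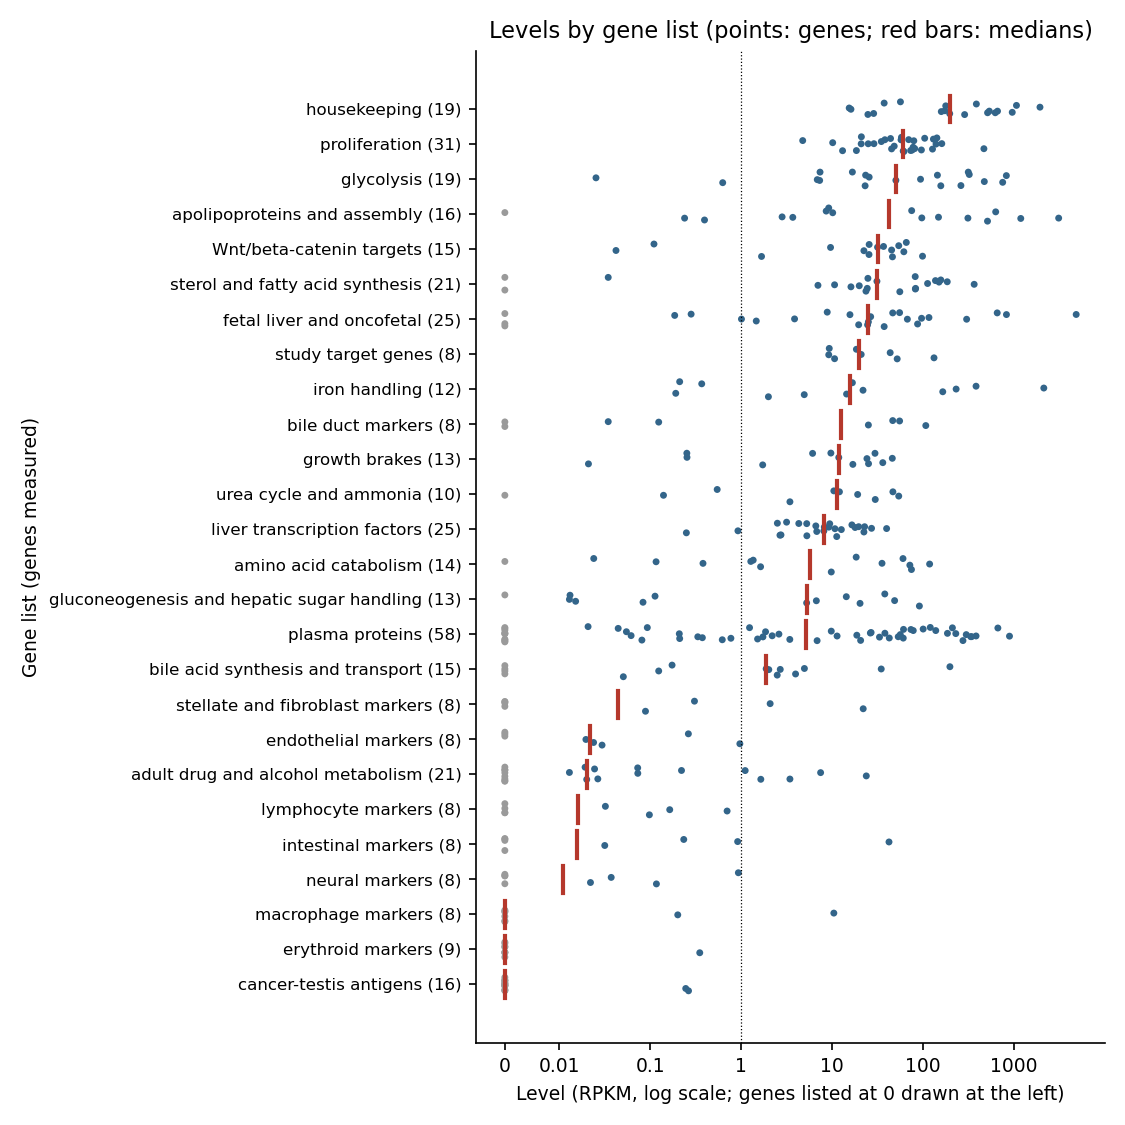
Level in RPKM (horizontal axis, log scale, with 0 drawn at the left in grey) of each gene of 26 lists (vertical axis, with the number of genes measured). Points are genes, red bars are list medians and the dotted line is 1 RPKM, from a median of 198 RPKM for housekeeping genes to 0 for cancer-testis antigens.

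Genes of fetal liver and of oncofetal proteins were expressed in 20 of 25 cases (80%, beside 49.8% of all genes). Their median was 25.2 RPKM. After AFP and GPC3 the highest were the imprinted genes PEG10 (660 RPKM) and PEG3 (304 RPKM). HMGA2, a chromatin protein of embryonic cells, stood at 117 RPKM, and DLK1, a surface marker of hepatoblasts, at 97 RPKM. The RNA-binding proteins of the fetal growth program were all expressed, with IGF2BP1 at 67.7, LIN28B at 26.7, IGF2BP2 at 19.7, IGF2BP3 at 15.8 and LIN28A at 8.88 RPKM. The progenitor markers EPCAM, KRT19 and SOX9 stood at 55.6, 46.7 and 25.2 RPKM, and PROM1 and SALL4 at 0.282 and 0.186 RPKM.

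Imprinted neighbours stood apart from each other. H19 was listed at 0, for which 3 reads would allow up to 0.0543 RPKM, and its neighbour IGF2 stood at 3.88 RPKM. INS-IGF2, which shares exons with IGF2, was listed at 0, and reads of these overlapping genes cannot be told apart. MEG3 was listed at 0 beside DLK1 at 97 RPKM. SPINK1, a protease inhibitor that is found in many liver tumors, was also listed at 0.

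Forms of proteins taken as fetal or widespread were set beside a form taken as that of adult liver in 12 pairs of related genes. The pairs were chosen with earlier results of these data known, and their labels were not tested here. In 11 pairs both were above 0. The fetal or widespread form was higher in 8 of them, in 6 by over 10-fold, and the adult form in 3. Those 6 include the pairs of ACACA with ACACB and BCAT1 with BCAT2, where the adult liver label of ACACB and BCAT2 is doubtful. AFP was 79.5-fold above ALB (76.9 to 82.3). PKM2, the table's older symbol for the pyruvate kinase gene of growing cells, was at 317 RPKM and PKLR at 5.27 RPKM, a 60.2-fold difference (54.1 to 67.2). BCAT1 was 28.4-fold above BCAT2 (22.1 to 37.2) and SLC2A1 9.71-fold above SLC2A2. The acetyl-CoA carboxylase ACACA of fat synthesis stood at 24.5 RPKM and ACACB at 1.1 RPKM.

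Low reads limited some of these ratios. CYP3A7, the drug oxidase of fetal liver, stood at 1.01 RPKM against 0.073 RPKM for CYP3A4, and the 13.9-fold difference had an interval from 5.57 to 44.4. The muscle glycogen synthase GYS1 stood at 9.24 RPKM and the liver form GYS2 at 0.0129 RPKM from 1 read (716-fold, 128 to 28321). IGF1, the growth factor secreted by adult liver, was listed at 0 with 3 reads allowing up to 0.0155 RPKM. Set against that limit, IGF2 was 250-fold higher. The limit covers counting error of IGF1 only, and no reads were inferred for IGF2. A gene listed at 0 may also be transcribed.

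The adult form was higher in 3 pairs. LDHA, the lactate dehydrogenase subunit of liver and muscle, stood at 325 RPKM and LDHB at 0.0253 RPKM from 1 read, a 12876-fold difference whose interval ran from 2311 to 508593. PFKL was 3.21-fold (2.9 to 3.56) above PFKP, and PYGL 1.42-fold (1.34 to 1.49) above PYGB. MAT2A and MAT1A, the widespread and the adult forms of methionine adenosyltransferase, stood at 83.3 and 75.1 RPKM, a 1.11-fold difference (1.07 to 1.15).

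**Figure D4:**
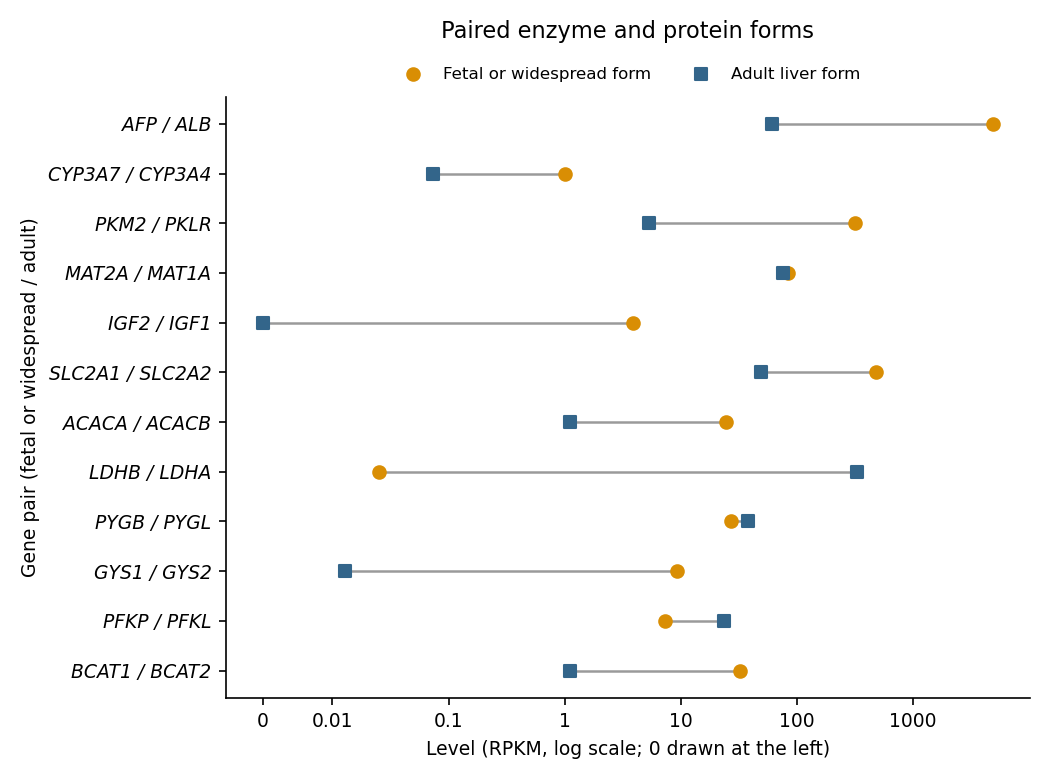
Level in RPKM (horizontal axis, log scale, 0 drawn at the left) in 12 gene pairs, joined by a line. Orange circles are the forms taken as fetal or widespread, and blue squares those taken as adult liver forms. The orange circle lies to the right in all pairs but LDHB with LDHA, PYGB with PYGL and PFKP with PFKL.

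Genes of cell division were all expressed, 31 of 31 (beside 49.8% of all genes). Their median was 60.9 RPKM, and 30 had at least 10 RPKM. PCNA, the clamp of DNA replication, led with 471 RPKM, followed by the helicase subunit MCM3 (162 RPKM), the topoisomerase TOP2A (143 RPKM) and TYMS, which makes thymidylate (140 RPKM). MKI67, the usual marker of cycling cells, stood at 48.5 RPKM. The lowest were CDT1 at 10.2 RPKM and CCNE2 at 4.77 RPKM. In contrast, only 8 of 66 histone genes with HIST symbols were expressed (12.1%), and the highest stood at 5.58 RPKM. Most histone mRNAs of dividing cells lack a poly-A tail, and the study's methods do not say which libraries had poly-A selection.

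A list of genes around the brakes on division was expressed in 10 of 13 cases (76.9%, beside 49.8% of all genes). Its median was 11.9 RPKM. Its highest member, MDM2, is a ubiquitin ligase that promotes growth and no brake itself, and stood at 46.2 RPKM. CDKN1B (p27) stood at 36.3, GADD45A at 29.8 and CDKN1A (p21) at 25.3 RPKM. RB1 stood at 24.3 RPKM. The inhibitors CDKN2A, CDKN2B and CDKN1C lay under 1 RPKM, at 0.253, 0.254 and 0.0209 RPKM. None of the 13 was listed at 0.

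Targets of Wnt and beta-catenin signalling were expressed in 13 of 15 cases (86.7%, beside 49.8% of all genes). Their median was 31.8 RPKM. NKD1, NOTUM and AXIN2, which dampen the pathway, stood at 99.4, 61.9 and 46.4 RPKM, and the receptor LGR5 at 65.9 RPKM. ZNRF3 and RNF43, which remove Wnt receptors, stood at 31.8 and 25.7 RPKM. GLUL (54.4 RPKM) and TBX3 (22.5 RPKM), already named in the metabolic and transcription factor lists, are also members. LEF1, a DNA-binding partner of beta-catenin, stood at 0.042 RPKM and APCDD1 at 0.11 RPKM, while TCF7 stood at 9.66 RPKM. CTNNB1 itself was at 180 RPKM (177 to 183). Cancer-testis antigen genes, which many tumors switch on, were expressed in 0 of 16 cases. PRAME and PAGE4 stood at 0.264 and 0.246 RPKM, and the other 14, among them MAGEA1, MAGEA3, MAGEA4, MAGEC1 and SSX1, were listed at 0. The MAGEA genes are near-identical copies.

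Most genes of glycolysis and of lipid synthesis were expressed. Glycolysis genes were expressed in 17 of 19 cases (89.5%, beside 49.8% of all genes), 8 with at least 100 RPKM. They held 1.1% of the summed level. After ENO1 and GAPDH the glucose transporter SLC2A1 (476 RPKM) and LDHA were highest, and PFKM and LDHB lay under 1 RPKM. Sterol and fatty acid synthesis genes were expressed in 18 of 21 cases (85.7%) with a median of 31.3 RPKM. The desaturase SCD stood at 368 RPKM, and FDFT1 and IDI1 of the sterol route at 158 and 151 RPKM. INSIG1, which restrains this route, and ME1 were listed at 0. In iron handling 9 of 12 genes were expressed (75%), with FTL and TF followed by FTH1 (233 RPKM) and the transferrin receptor TFRC (166 RPKM). HAMP, which encodes the iron hormone hepcidin, stood at 16.8 RPKM.

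Markers of other cell types were mostly at or near 0. In RNA of a whole culture, few cells of a type and little RNA per cell cannot be told apart. Of 65 marker genes in 8 lists, 35 were listed at 0 and 8 were expressed (12.3%, beside 49.8% of all genes). No endothelial (8 genes), lymphocyte (8), erythroid (9) or neural (8) marker reached 1 RPKM, and VWF, KDR, PTPRC, CD3E, HBB, ALAS2 and NEFL were listed at 0. Of the 8 stellate and fibroblast markers ACTA2 (22.1 RPKM) and PDGFRB (2.09 RPKM) were expressed, while COL1A2, COL3A1, DCN and LUM were listed at 0. Of the 8 macrophage markers only CD68, a lysosomal protein, reached 1 RPKM (10.5 RPKM), and CD163, MARCO and CSF1R were listed at 0. Of the bile duct markers 4 of 8 were expressed (50%, beside 49.8% of all genes and 55.9% of protein-coding genes). These were ANXA4 at 108 RPKM followed by EPCAM, KRT19 and SOX9, already given above as progenitor markers. KRT7 and CFTR were listed at 0. Among intestinal markers VIL1, a protein of microvilli, stood at 42.5 RPKM, and CDX1, CDX2 and MUC2 were listed at 0.

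The study added mimics of miR-195 and miR-497 to these cells, and their mature sequences (RefSeq) are shown with the seed, bases 2 to 8, in capitals. They share that seed.
miR-195-5p: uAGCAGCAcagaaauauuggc
miR-497-5p: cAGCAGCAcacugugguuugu
Their genes MIR195 and MIR497 were listed at 0, as were 656 of the 717 miRNA genes, in a library of 36-base reads that measures long RNA. The 8 cell cycle genes that the study examined as targets were all expressed before any mimic was added (beside 49.8% of all genes). Their median was 19.8 RPKM. The study took some of them as known targets and picked the others with data of this series in hand. CDK4, CDK6 and the D cyclins CCND1 and CCND3, which start the cycle, stood at 133, 52.3, 43.8 and 10.7 RPKM. CCNE1 and the phosphatase CDC25A stood at 21 and 18.6 RPKM. E2F3, a transcription factor of S phase, and BTRC, a part of a ubiquitin ligase, stood at 9.35 and 9.23 RPKM. EIF2C2, the gene of Ago2, the protein precipitated in other libraries of the series, was at 8.89 RPKM.

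General genes gave a view of how reads were counted. All 19 measured housekeeping genes were expressed (beside 49.8% of all genes), with a median of 198 RPKM. ACTB, TUBB and ACTG1 stood at 665, 628 and 540 RPKM. Of these 77 ribosomal protein genes 53 had at least 100 RPKM and their median was 223 RPKM, but 9 lay under 10 RPKM. Of the 32 with over 15 named pseudogenes in GENCODE 7 lay under 10 RPKM, and their median was 102 RPKM. Of the 23 with 0 to 5 pseudogenes 1 lay under 10 RPKM, and their median was 430 RPKM. RPL7, RPL36A and RPS3A, each with over 50 named pseudogenes, stood at 0.531, 0.473 and 2.99 RPKM. Every cell needs these proteins, so a ribosomal protein gene listed at or near 0 here may still be transcribed. The same may apply to other genes listed at 0 above, which was not tested. Whether reads with several matches were left out was not tested.

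Promoter letters were counted over 15200 genes (69.5% of all) with an entry in the RefSeq promoter table, taking the first entry of each. At least 10 CpG were found in 73.8% of these promoters, and the share was 42.6% for genes listed at 0, 63.4% under 1 RPKM, 87% from 1 to 10 RPKM, 93.6% from 10 to 100 RPKM and 92.7% from 100 RPKM. Promoters of the plasma protein and apolipoprotein lists held that many CpG in 9 of 54 cases (16.7%), and those of the proliferation list in 23 of 23. The letters TATAAA were in 9.38% of all these promoters. The share was 18.3% for genes listed at 0, 4.14% from 10 to 100 RPKM and 11% from 100 RPKM, so that it was lowest among genes of middle level.

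GTTAAT, the HNF1 letters, occurred in 13 of the 54 promoters of secreted liver proteins (24.1%) and in 5.2% of all. It was in 1 of the 13 such promoters of genes with at least 100 RPKM, and in 4 of 17 of those under 1 RPKM. CAAAGTCCA, letters of an HNF4 site, was in 2 of the 54 and in 0.316% of all, and TTGCGCAA, letters of a C/EBP site, was in 0 of the 54 and in 0.184% of all. Over every entry of the table, 35116 promoters, the 4 letter groups were in 11.5% (TATAAA), 6.88% (GTTAAT), 0.384% and 0.151%. The motifs were searched on both strands, and a promoter with at least 1 hit was counted once for that motif. The shares are descriptions of these letters and windows alone.

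**Figure D5:**
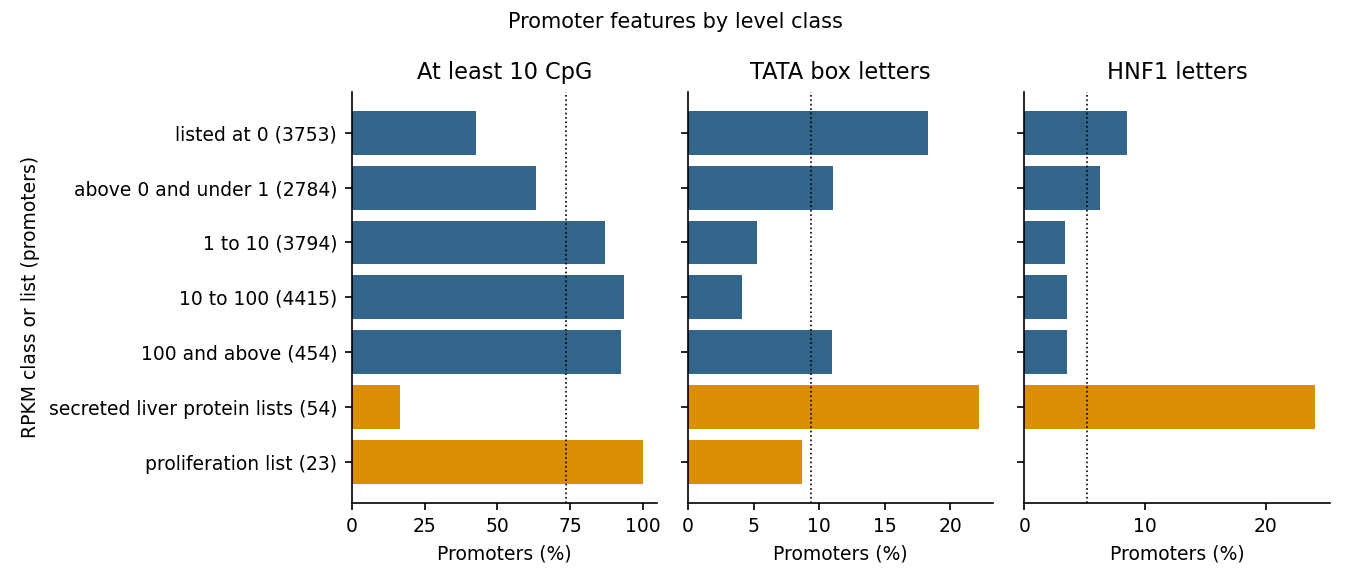
Share of promoters (horizontal axes, percent) with at least 10 CpG, with TATAAA and with GTTAAT, for 5 level classes in RPKM (blue) and 2 gene lists (orange), with the number of promoters in brackets. The dotted lines mark all genes, 73.8%, 9.38% and 5.2%, and the secreted liver protein lists lie at 16.7%, 22.2% and 24.1%.

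Expressed protein-coding genes were found on every autosome. The share of them was 56.5% over all autosomes and ran from 45.2% on chromosome 21 to 65.1% on chromosome 16. Their median level was 12.1 RPKM. It was highest on chromosome 20, at 22 RPKM over 297 genes, followed by chromosome 2 (18.3 RPKM, 698 genes) and chromosome 10 (17.4 RPKM, 412 genes), and lowest on chromosome 19, at 6.71 RPKM over 692 genes.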

How the data were processed

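RNA of non-transfected Hep G2 cells was sequenced in 36-base reads. The authors mapped them to hg19 and converted them with CASAVA 1.7 to RPKM, and the deposited RPKM were used without further scaling. Gene annotation, read filters and poly-A selection of this library are not given in the sources used here. All value columns were matched to a library (0 unmatched).

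Low values were whole multiples of 1.12e-05 RPKM (100% of 7314 values under 5 RPKM, within 0.1 of that step), which gave the total reads. Gene lengths and whole reads were the smallest whole numbers giving the values of a gene in at least 3 columns of the table. Lengths were multiplied by up to 4 and kept within 1.5-fold of a GENCODE release 44 transcript on GRCh37 (96.1% of 13622 lines). A wrong multiple would change reads and intervals, not RPKM. The other columns served nothing else. In simulated data of 4000 genes, a length was found for 3352, and 99.6% of these were the true length or a whole fraction of it. Intervals of pair ratios were exact conditional binomial. Of the symbols, 93.7% matched GENCODE directly or through a unique older name in the RefSeq table.

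The rule for named genes took the 25 highest symbols, AFP, ALB and APOA1, the 4 highest and other telling members of each list, all pairs and the study's 8 targets. Some genes this rule selects, and the pairs that hold them, are not reported here. Genes and lists were chosen with earlier results of these data known. Alternatives were other thresholds, lines kept apart, small RNA genes left out and pseudocounts of 0.1 and 1. Python 3.11.15, numpy 2.4.6, pandas 2.3.3, scipy 1.17.1 and matplotlib 3.10.9 were used.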

Additional observations from a re-analysis of the deposited data

How the results depend on the processing

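One library gives no spread between cultures, multi-copy and overlapping genes may be undercounted, and a level under about 0.1 RPKM rests on a few reads. The number of expressed genes stayed within 1.5-fold under every threshold tried, at 12165 from 0.3 RPKM, 11684 from 0.5 RPKM and 9891 from 2 RPKM. Leaving out small RNA genes gave shares of 6.05%, 21% and 54.4% for the 10, 100 and 1000 highest genes, and inferred reads in place of RPKM gave 4.21%, 16.2% and 52.2%, where FN1, APOB and other genes without inferred reads drop out. With 0.3 RPKM as threshold, 1 endothelial, 1 lymphocyte, 1 erythroid, 1 neural and 2 intestinal markers counted as expressed, and with 2 RPKM 3 genes of drug and alcohol metabolism did. The counts of the other lists stayed within 1.5-fold. No pair changed direction. With 1 RPKM added, the log2 ratio was 0.91 for CYP3A7 to CYP3A4, 5.67 for PKM2 to PKLR, 3.61 for ACACA to ACACB (4.36 with 0.1 RPKM added), -8.31 for LDHB to LDHA, 3.34 for GYS1 to GYS2 and 3.96 for BCAT1 to BCAT2, since the added value is large beside the lower gene. The ranks of the 25 highest genes, ALB and APOA1 shifted by 0 places. Leaving out small RNA genes could not move them, since the highest small RNA gene stood at 60 RPKM and ALB at 61.4 RPKM. Taking the highest line of each symbol changed only the 28 symbols on more than 1 line.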
